A study of Mus musculus with 9 samples.

Results

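The 34 genes described here are autism risk genes outside the CHD and TSC families, most of them chromatin regulators, and they were chosen by name. All Ensembl transcripts of each gene were summed in the 9 RNA-seq libraries, which gave 34 of the 54119 genes in the table. Microglia are immune cells that reside in the brain, and the primary microglia used here were shaken off mixed glial cultures made from the brains of C57BL/6J mouse embryos at E18. Of the libraries, 3 came from cells given control siRNA, 3 from cells given Chd8 siRNA, and 3 from cells given Tsc2 siRNA, and the libraries of a group are numbered 1, 2, and 3. An siRNA is a small RNA duplex introduced into cells to degrade a matching mRNA, and no allele was altered in any group. RNA was isolated 3 days after the siRNA according to the methods, the results of the study speak of lipopolysaccharide for the same experiment, and the sample descriptions name none. The comparisons ask whether the other autism risk genes of microglia change when Chd8 or Tsc2 is lowered.

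Most of these genes encode proteins that write, remove, or read chemical marks on histones, or that move nucleosomes. Methyltransferases place methyl groups on histone lysines, demethylases remove them, BAF complexes slide or evict nucleosomes, and corepressors bring histone deacetylases to promoters. Loss of a single copy of many of them is linked to autism or intellectual disability in humans. Chd8, a chromatin remodeler, and Tsc2, an inhibitor of mTOR signaling, belong to the same class of risk genes.

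Total counts per library were between 16913448 and 33213801. CPM are counts scaled to a common library size, and edgeR's TMM factors were used for the CPM of genes. The smallest number taken as detected was 3 counts. Scaled by the total counts alone, without these factors, it was between 0.0903 and 0.177 CPM. Chd8 mRNA was at 118, 97.4, and 93.6 CPM in control siRNA libraries 1 to 3, and at 86.8, 44.5, and 38.3 CPM after Chd8 siRNA. The log2 fold change was −0.86 ± 0.28 (SE), which did not pass the FDR in the fit with the siRNA alone. With the replicate number as a block it was −0.93 ± 0.14, with an adjusted p of 0.00777 by edgeR's quasi-likelihood test. The call with the block was lost without control siRNA replicate 2 (adjusted p = 0.0586), control siRNA replicate 3 (0.0795), or Chd8 siRNA replicate 2 (0.0821). Without the block the log2 fold change was between −0.64, without Chd8 siRNA replicate 3, and −1.32, without Chd8 siRNA replicate 1. It passed the FDR in none of these fits. Tsc2 mRNA was at 40.8, 39.9, and 38.9 CPM with control siRNA and at 24.6, 30.6, and 36.5 CPM with Tsc2 siRNA. All 3 treated libraries were lower for both targets, but the log2 fold change of Tsc2, −0.38 ± 0.15, did not pass with the block either (adjusted p = 0.219). The libraries with replicate number 1 stood apart from the other 6 in many genes. The microglia markers Csf1r and C1qb were at 405 to 572 CPM and 612 to 866 CPM, whereas Tmem119 was at 0.0 to 1.11 CPM and P2ry12 at 0.686 to 2.78 CPM, so markers of resting microglia in tissue were absent or near 0.

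Promoter sequences of 300 bases, from 250 before to 50 after the start of a transcript, were found in RefSeq for 27 of the 34 genes, in 39 windows on GRCm38.p6. A CpG is a C followed by a G, and clusters of them are common at the promoters of genes used in many tissues. Some genes had several windows. The median over the 39 windows was 24 CpGs, against a median of 7 over all 32851 windows in RefSeq. At least 20 CpGs were found in 21 of the 39 windows, and in 26.5% of all windows. The count of CpGs is a description of the letters and not of a methylation state. The promoters below are shown because Trip12 had the highest level of the 34 genes, Phip and Ptn varied with the replicate number, and Ptn is at the low end of the CpG counts. They lie at chr1:84839255-84839554, chr9:82975440-82975739, and chr6:36810130-36810429, all on the minus strand, and are printed 5′ to 3′ with each CpG in capitals.
Trip12: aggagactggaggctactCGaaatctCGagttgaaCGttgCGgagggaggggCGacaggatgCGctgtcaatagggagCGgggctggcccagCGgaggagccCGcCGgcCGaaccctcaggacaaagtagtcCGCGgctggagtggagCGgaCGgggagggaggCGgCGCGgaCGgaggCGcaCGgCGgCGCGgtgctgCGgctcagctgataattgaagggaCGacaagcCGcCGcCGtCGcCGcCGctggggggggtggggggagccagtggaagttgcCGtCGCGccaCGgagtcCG
Phip: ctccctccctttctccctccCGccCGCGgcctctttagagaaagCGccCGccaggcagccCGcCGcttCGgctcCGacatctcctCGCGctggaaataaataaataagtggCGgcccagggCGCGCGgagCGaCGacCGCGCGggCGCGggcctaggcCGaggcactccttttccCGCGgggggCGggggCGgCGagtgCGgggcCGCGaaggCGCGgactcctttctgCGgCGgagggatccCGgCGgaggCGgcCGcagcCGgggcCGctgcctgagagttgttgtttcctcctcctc
Ptn: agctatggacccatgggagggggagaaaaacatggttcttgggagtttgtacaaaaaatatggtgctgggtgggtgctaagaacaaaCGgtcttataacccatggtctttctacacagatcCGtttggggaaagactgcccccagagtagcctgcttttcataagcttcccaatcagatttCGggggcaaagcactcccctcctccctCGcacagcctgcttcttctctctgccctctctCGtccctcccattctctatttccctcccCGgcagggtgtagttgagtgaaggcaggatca
The Trip12 window held 37 CpGs and the Phip window 41, with G and C making up 70.3% and 72.0% of the bases. The Ptn window held 6 CpGs, with 52.0% G and C. Across the windows of the members the count ran from 1, in the window of Setd5, to 61, in the window of Med13l. The Setd5 window, at chr6:113104685-113104984, lies inside the gene, whose annotated start is at 113077365.

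Nearly the whole list was detected in the microglia cultures. Levels between genes are compared here in TPM, which divide counts by transcript length and scale each library to the same sum. In the control siRNA libraries the median of the 34 genes was 8.17 TPM, and 33 of them passed the count filter. Of these, 31 were above the median of the 16273 genes tested, which was 1.18 TPM, and 6 were in the top 10% of those genes. A single short gene annotated as a microRNA took 72.1% to 74.2% of all TPM, which lowers every other TPM. With protein coding transcripts only, the median of the members was 38.3 TPM and that of the tested genes 8.43 TPM.

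**Figure D1:**
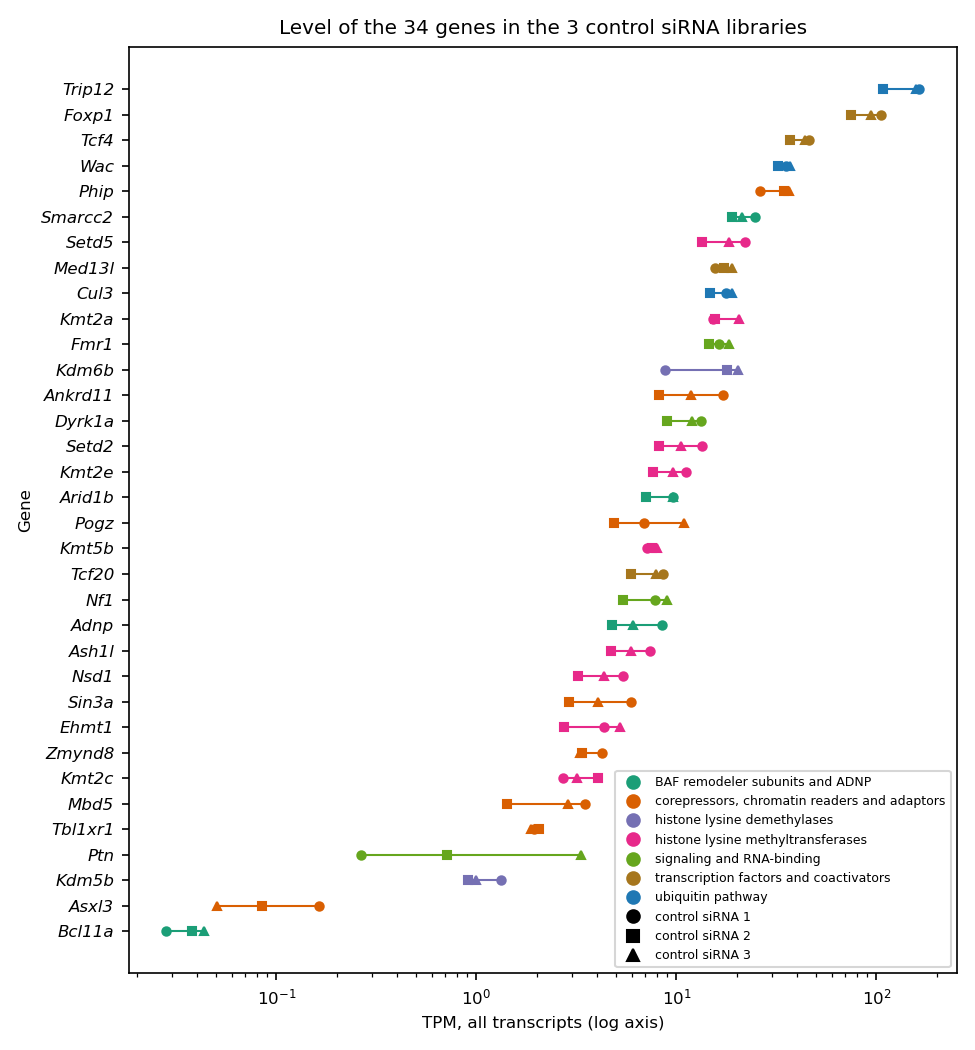
TPM of each of the 34 genes (log axis) in the 3 control siRNA libraries, 1 symbol per library, with a line from the lowest to the highest library and a color for the role of the gene. Trip12 and Foxp1 lie highest, at 108 to 164 and 74.7 to 106 TPM, and Asxl3 and Bcl11a lie lowest, at 0.163 TPM or less in all 3 libraries.

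The ubiquitin pathway genes and the transcription factors were the most abundant groups. Trip12, a ubiquitin ligase that limits the spread of ubiquitin signals at damaged chromatin, was at 164, 108, and 158 TPM in control siRNA libraries 1 to 3. Foxp1, a forkhead repressor, was at 106, 74.7, and 93.8 TPM. The next in order was Tcf4, a basic helix-loop-helix factor, at 45.8, 37.1, and 44.0 TPM. Wac, an adaptor that couples histone H2B ubiquitination to transcription, was at 35.4, 32.2, and 36.8 TPM. The fifth was Phip, a bromodomain protein that reads histone marks and works with cullin 4 ligases, at 26.3, 34.6, and 36.4 TPM. The libraries of Trip12, Foxp1, Tcf4, and Wac did not overlap between neighbors in this order, whereas those of Wac and Phip did. Of these 5 genes, 4 were also the highest with protein coding transcripts only. Phip then fell to rank 15 among the members. Cul3, the scaffold of another ubiquitin ligase, was at 17.2 ± 2.11 TPM (SD, n = 3).

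Of the 5 lowest members, Bcl11a and Asxl3 were at or near the limit of detection. Bcl11a, a zinc finger protein of BAF complexes known from neurons and lymphocytes, had 8, 8, and 9 counts in the control siRNA libraries, 5, 1, and 10 with Chd8 siRNA, and 1, 2, and 2 with Tsc2 siRNA. It did not pass the count filter, and without the filter the adjusted p against control siRNA was 0.996 after Chd8 siRNA and 0.986 after Tsc2 siRNA. Its counts with Tsc2 siRNA were below the 3 counts taken as detected. Asxl3, a Polycomb-associated adaptor, had 33, 12, and 8 counts with control siRNA, 18, 1, and 21 with Chd8 siRNA, and 15, 9, and 6 with Tsc2 siRNA. Of all Asxl3 counts, 98.4% were assigned to a retained-intron transcript, and its protein coding transcripts were listed at 0 in 8 of 9 libraries. Kdm5b, a demethylase of H3K4, was at 1.32, 0.903, and 0.995 TPM with control siRNA. In CPM it was at 14.7, 10.5, and 10.7 with control siRNA, 14.8, 7.59, and 6.75 with Chd8 siRNA, and 15.6, 9.98, and 9.98 with Tsc2 siRNA, and the groups overlapped. Ptn, the secreted growth factor pleiotrophin, was at 0.266, 0.716, and 3.35 TPM, the widest spread between control libraries among the 34 genes as a ratio of highest to lowest. Tbl1xr1, a subunit of the NCoR corepressor, was at 1.94, 2.05, and 1.88 TPM with control siRNA. In CPM it was at 15.9, 11.1, and 11.2 with control siRNA, 12.4, 14.0, and 10.9 with Chd8 siRNA, and 18.7, 9.73, and 11.8 with Tsc2 siRNA, and these groups overlapped too.

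Between these ends lay the enzymes that write and erase histone methylation. The 9 methyltransferases were at 3.30 to 17.9 TPM with a median of 7.55 TPM. Setd5, a SET domain protein, was the highest, followed by Kmt2a, which methylates H3K4 at promoters, at 17.1 ± 2.93 TPM. With protein coding transcripts only Kmt2a was the highest at 82.0 TPM, and Setd5, at 33.8 TPM, was below Setd2 and Kmt5b as well. Setd2, the enzyme that trimethylates H3K36, was at 10.7 ± 2.61 TPM, and Kmt2e, a SET domain reader without a strong enzyme activity of its own, at 9.52 ± 1.78 TPM. Kmt5b, which dimethylates H4K20, was at 7.55 ± 0.43 TPM. Ash1l and Nsd1, which methylate H3K36, were at 5.99 ± 1.32 and 4.32 ± 1.08 TPM. Ehmt1, an H3K9 methyltransferase, was at 4.11 ± 1.26 TPM, and Kmt2c, which methylates H3K4 at enhancers, was the lowest at 3.30 ± 0.678 TPM. The demethylase Kdm6b, which removes H3K27 methylation and is known as a gene of activated macrophages, was at 15.7 ± 6.11 TPM.

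Subunits of large complexes fell in the same range. Smarcc2, a core BAF subunit, was at 21.6 ± 2.92 TPM, Arid1b, the DNA-binding BAF subunit, at 8.76 ± 1.45 TPM, and Adnp, a homeodomain protein that partners with remodelers, at 6.44 ± 1.86 TPM. Ankrd11, which recruits histone deacetylases, was at 12.4 ± 4.51 TPM, and Pogz, a heterochromatin-binding zinc finger protein, at 7.58 ± 3.08 TPM. Sin3a, the scaffold of the SIN3 deacetylase complex, was at 4.30 ± 1.52 TPM, Zmynd8, a reader of acetylated histones, at 3.65 ± 0.528 TPM, and Mbd5, a methyl-CpG-binding domain protein, at 2.60 ± 1.06 TPM. Med13l of the Mediator kinase module was at 17.3 ± 1.67 TPM and the coactivator Tcf20 at 7.49 ± 1.39 TPM. Outside chromatin, Fmr1, which encodes the RNA-binding protein FMRP, was at 16.4 ± 1.90 TPM, the kinase gene Dyrk1a at 11.4 ± 2.19 TPM, and the RAS inhibitor gene Nf1 at 7.39 ± 1.81 TPM. Nf1 contains Evi2a, Evi2b, and Evi2 on the other strand, Kmt2e overlaps Srpk2, Ash1l overlaps Dap3, Mbd5 overlaps Orc4, and Adnp overlaps Gm20716 on the same strand, so their levels are uncertain where reads could be split.

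Part of these counts did not come from protein coding transcripts. Protein coding transcripts held more than 90% of the counts in 22 of the 34 genes, and less than 50% in 2, Asxl3 and Phip. In Phip, retained-intron transcripts held 50.6% to 57.0% of the counts in the control siRNA libraries, 53.5% to 56.9% with Chd8 siRNA, and 53.1% to 54.7% with Tsc2 siRNA. In Setd5, transcripts annotated as processed and without an open reading frame held 24.3% to 27.1% with control siRNA, 21.4% to 24.4% with Chd8 siRNA, and 27.9% to 31.3% with Tsc2 siRNA. The Setd5 shares with Tsc2 siRNA were above and those with Chd8 siRNA mostly below the control range, and this difference was seen after the values were known and not tested. Transcripts marked for nonsense-mediated decay held 15.8% of the Kmt2e counts and 14.3% of the Ankrd11 counts. When the 268 member transcripts that passed the filter were tested singly, none passed both thresholds used for genes (FDR 0.05, 1.5-fold) in any comparison, with or without the replicate block, and with the block 11, 11, and 10 had an unadjusted p below 0.05 for Chd8 siRNA, Tsc2 siRNA, and the knockdowns against each other. These are 4.10%, 4.10%, and 3.73% of the member transcripts, where 5.41%, 4.48%, and 4.49% of all 41633 tested transcripts did.

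**Figure D2:**
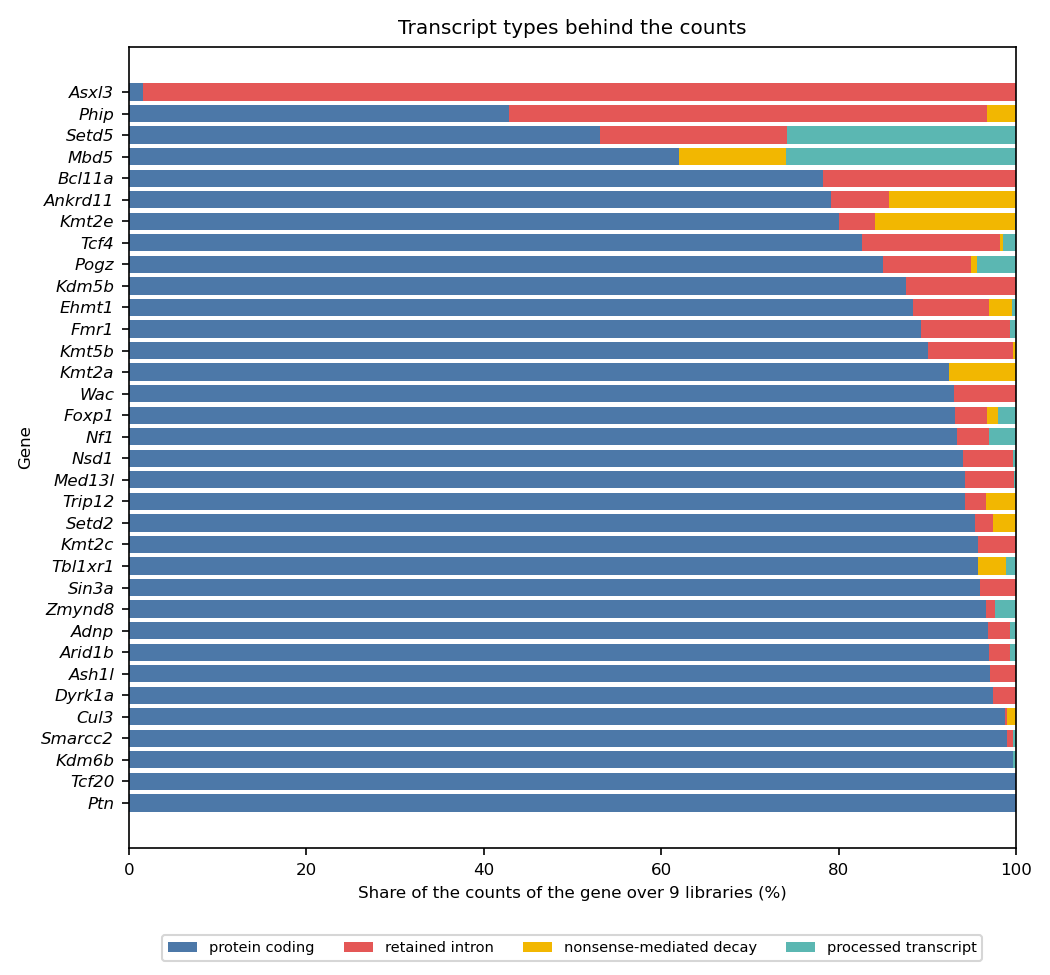
Share of the counts of each gene over the 9 libraries (%) by annotated transcript type. Asxl3 is almost all retained intron (98.4%), Phip is 53.9% retained intron, and 22 genes are more than 90% protein coding.

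After Chd8 siRNA, none of the 33 tested members passed the test. In the fit with the siRNA alone, edgeR's quasi-likelihood test called 0.0% of all 16273 genes at both thresholds (FDR 0.05, 1.5-fold), and 622 genes but 0 members had an unadjusted p below 0.05. With the replicate block 0.535% of all genes were called and again 0 members, and the lowest adjusted p of a member was 0.127. DESeq2's Wald test and limma-voom also called 0 members in all 3 comparisons, with 0 at an unadjusted p below 0.05. The members were not one-sided, with a median log2 fold change of −0.03 against −0.02 over all genes. The 95% interval of the fold change lay within 1.5-fold in either direction for 19 of 33 members, compared with 20.7% of all genes, and with the block for 29 members and 5525 of the 16273 genes. Members outside that limit with the block were Asxl3, Kdm5b, Pogz, and Ptn, and for these 4 a change of 1.5-fold lies inside the interval. The median SE of a member was 0.19, against 0.37 over all genes. Summed microglia markers were at 3720 to 4490 CPM with control siRNA and 4100 to 4930 CPM with Chd8 siRNA. Summed astrocyte markers were at 15.6 to 120 and 14.3 to 60.4 CPM. At each replicate number the microglia sum was higher and the astrocyte sum lower with Chd8 siRNA than with control siRNA. The part of these markers in the member values was not tested.

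**Figure D3:**
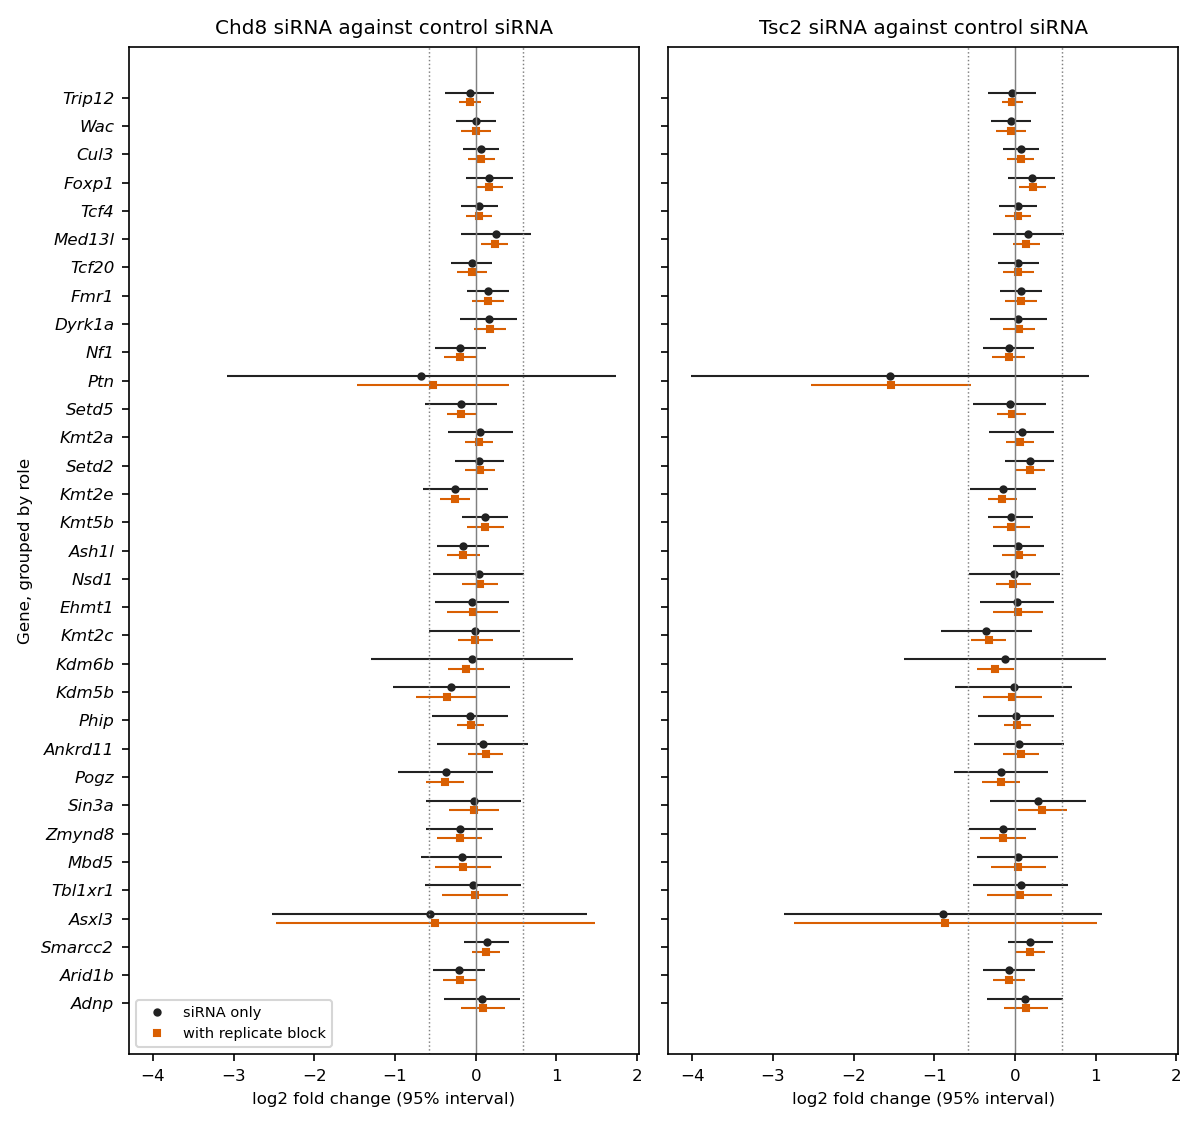
Log2 fold change of the 33 tested genes with its 95% interval after Chd8 siRNA (left) and Tsc2 siRNA (right), in the fit with the siRNA alone (black circles) and with the replicate block (orange squares). Dotted lines mark 1.5-fold, most intervals cross 0, and Ptn and Asxl3 have the widest intervals.

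The most abundant members had log2 differences near 0 after Chd8 siRNA. Trip12 was at 982, 741, and 832 CPM with control siRNA and at 895, 746, and 786 CPM with Chd8 siRNA, a log2 difference of −0.07 (95% interval −0.38 to 0.23). Tcf4 was at 224, 233, and 212 CPM and at 230, 222, and 239 CPM, a log2 difference of 0.05 (−0.18 to 0.28). For Wac the values were 122, 115, and 118 CPM and 124, 109, and 121 CPM, a log2 difference of 0.00 (−0.25 to 0.25). The groups overlapped in all 3 genes, and these intervals lie within 1.5-fold. Foxp1 was at 455, 359, and 353 CPM with control siRNA and at 482, 427, and 400 CPM with Chd8 siRNA, where each treated library exceeded the control library of the same number. Its log2 difference of 0.17 (−0.13 to 0.46) did not pass the test. Phip was at 216, 352, and 297 CPM and at 213, 301, and 310 CPM, which overlapped.

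Among the chromatin enzymes the Chd8 siRNA differences ran in both directions. Of the 9 methyltransferases, 4 had a log2 difference above 0 and 5 below, from −0.25 ± 0.18 for Kmt2e to 0.12 ± 0.13 for Kmt5b. Of the 8 corepressors and readers, 7 were below 0, and the most negative of the 8 were Asxl3 (−0.57 ± 0.87) and Pogz (−0.37 ± 0.26). Over the whole list Ptn was lower still, at −0.67 ± 1.08. Pogz was at 40.8, 34.5, and 57.8 CPM with control siRNA and at 28.0, 29.4, and 45.3 CPM with Chd8 siRNA, lower in each pair of libraries with one number, but the groups overlapped. With the block its log2 difference was −0.38 ± 0.11, and its adjusted p of 0.127 was the lowest of any member. Without the block its log2 difference was −0.14 without control siRNA replicate 3 and −0.62 without Chd8 siRNA replicate 3. Med13l, Kmt2e, and Foxp1 also had an unadjusted p below 0.05 with the block, which makes 4 of 33 members, where 12.8% of all genes did.

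All 3 Chd8 siRNA libraries lay above all 3 control siRNA libraries in 2 members, Cul3 and Fmr1, compared with 4.17% of all genes, and below them in 0 members, compared with 4.92%. Cul3 was at 105, 105, and 108 CPM with control siRNA and at 109, 113, and 112 CPM with Chd8 siRNA. Fmr1 was at 112, 105, and 111 CPM and at 132, 117, and 116 CPM. These genes were picked out after their values were seen, and the exact permutation p of 0.1 (two-sided) is the smallest that 3 libraries against 3 allow. Their log2 differences, 0.07 ± 0.10 and 0.15 ± 0.12, were small beside the limit of 1.5-fold.

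After Tsc2 siRNA the result was alike in its counts, with the same control siRNA libraries used again. In the fit with the siRNA alone 0.0% of all genes and 0 of 33 members were called, and 425 genes but 0 members had an unadjusted p below 0.05. With the block 0.387% of all genes and 0 members were called, with a lowest adjusted p of 0.202, for Ptn. The interval lay within 1.5-fold for 22 members, and for 30 with the block, compared with 22.5% and 35.9% of all genes. The 3 exceptions with the block were Asxl3, Ptn, and Sin3a. Summed microglia markers were at 4560 to 4780 CPM with Tsc2 siRNA, above the control range.

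Values for the abundant members were again close to control. Trip12 was at 886, 778, and 825 CPM with Tsc2 siRNA, a log2 difference of −0.04 (−0.34 to 0.26). Tcf4 was at 215, 236, and 236 CPM, with a difference of 0.04 (−0.19 to 0.27), and Wac at 112, 125, and 107 CPM, with a difference of −0.04 (−0.29 to 0.20). Each of these groups overlapped the control libraries. Phip was at 239, 315, and 320 CPM, with a difference of 0.01 (−0.46 to 0.49). Foxp1 was at 443, 457, and 447 CPM with a difference of 0.21 (−0.09 to 0.50), and control library 1 lay among the treated libraries.

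Smarcc2 was the only member with all 3 Tsc2 siRNA libraries above all 3 control siRNA libraries, compared with 3.87% of all genes, and 0 members lay entirely below, compared with 4.23%. It was at 167, 157, and 146 CPM with control siRNA and at 178, 185, and 173 CPM with Tsc2 siRNA, a log2 difference of 0.19 ± 0.12. With the block, 7 of 33 members had an unadjusted p below 0.05, where 10.7% of all genes did, and none passed the FDR. They were Ptn, Kmt2c, Foxp1, Sin3a, Smarcc2, Kdm6b, and Setd2. Kmt2c was at 49.0, 87.2, and 60.5 CPM with control siRNA and at 43.3, 59.7, and 50.6 CPM with Tsc2 siRNA, lower at each number. Its log2 difference with the block was −0.33 ± 0.10 (adjusted p = 0.218). Sin3a was at 39.0, 22.5, and 21.8 CPM and at 35.5, 31.2, and 34.8 CPM, higher at numbers 2 and 3 and lower at number 1. Without the block the log2 difference of Kmt2c was between −0.09, without control siRNA replicate 2, and −0.53, without control siRNA replicate 1. That of Sin3a was between 0.14, without control siRNA replicate 3, and 0.61, without control siRNA replicate 1.

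Ptn had the most negative value of any tested member after Tsc2 siRNA. It was at 0.867, 2.59, and 10.0 CPM with control siRNA, at 0.737, 1.91, and 5.80 CPM with Chd8 siRNA, and at 0.726, 0.201, and 3.57 CPM with Tsc2 siRNA. The value for Tsc2 siRNA was lower than control at each number, yet the groups overlapped because number 3 was high in every group. The log2 difference was −1.55 ± 1.10 without the block and −1.53 ± 0.47 with it (adjusted p = 0.202). Without the block it was −0.15 without control siRNA replicate 3 and −3.24 without Tsc2 siRNA replicate 3. The number of counts was 4 in Tsc2 siRNA library 2 and 234 in control siRNA library 3. Pleiotrophin is made by glial and neural progenitor cells in the brain. The summed level of 10 astrocyte markers was 15.6 to 120 CPM in the control siRNA libraries and 13.9 to 60.0 CPM in the Tsc2 siRNA libraries, and its part in the Ptn values was not tested. In bulk samples, fewer cells of a type and less RNA per cell cannot be told apart.

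Between the knockdowns, 0 of 33 members were called and 0.0% of all genes, or 0.221% with the block, and 504 genes but 0 members had an unadjusted p below 0.05 without it. All 3 Chd8 siRNA libraries were above all 3 Tsc2 siRNA libraries in 1 member, Kmt5b, compared with 4.02% of all genes, and below in 1, Ash1l, compared with 4.42%. Kmt5b was at 40.8, 46.6, and 40.7 CPM with Chd8 siRNA and at 39.7, 36.5, and 37.6 CPM with Tsc2 siRNA. Ash1l was at 113, 101, and 110 CPM and at 119, 115, and 137 CPM. With the block, the log2 difference was 0.16 ± 0.11 for Kmt5b and −0.20 ± 0.10 for Ash1l, and neither passed the FDR. Kmt2c and Sin3a had an unadjusted p below 0.05 in that fit, with 0.32 ± 0.10 and −0.36 ± 0.14, which makes 2 of 33 members, where 10.7% of all genes did.

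Many members differed between replicate numbers, whereas none was called between siRNAs. The libraries that share a number were compared across the 3 siRNAs, with the siRNA in the same fit, a test added after the data had been seen. Of the 33 members, 16 passed an FDR of 0.05 (48.5%), compared with 25.0% of all genes. Members were measured more closely than most genes, with a median SE of 0.10 against 0.28 for Chd8 siRNA with the block. The part of this precision in the share that passed was not tested. In 9 of these 16 the fitted log2 differences of numbers 2 and 3 from number 1 were both below 0, and in 7 both were above 0. These 7 include Pogz, with 0.02 for number 2 and 0.62 for number 3, and Ptn, where the libraries of numbers 1 and 2 overlapped. Per the methods a biological replicate is a culture from 1 brain, and they do not say whether libraries with the same number share a culture.

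**Figure D4:**
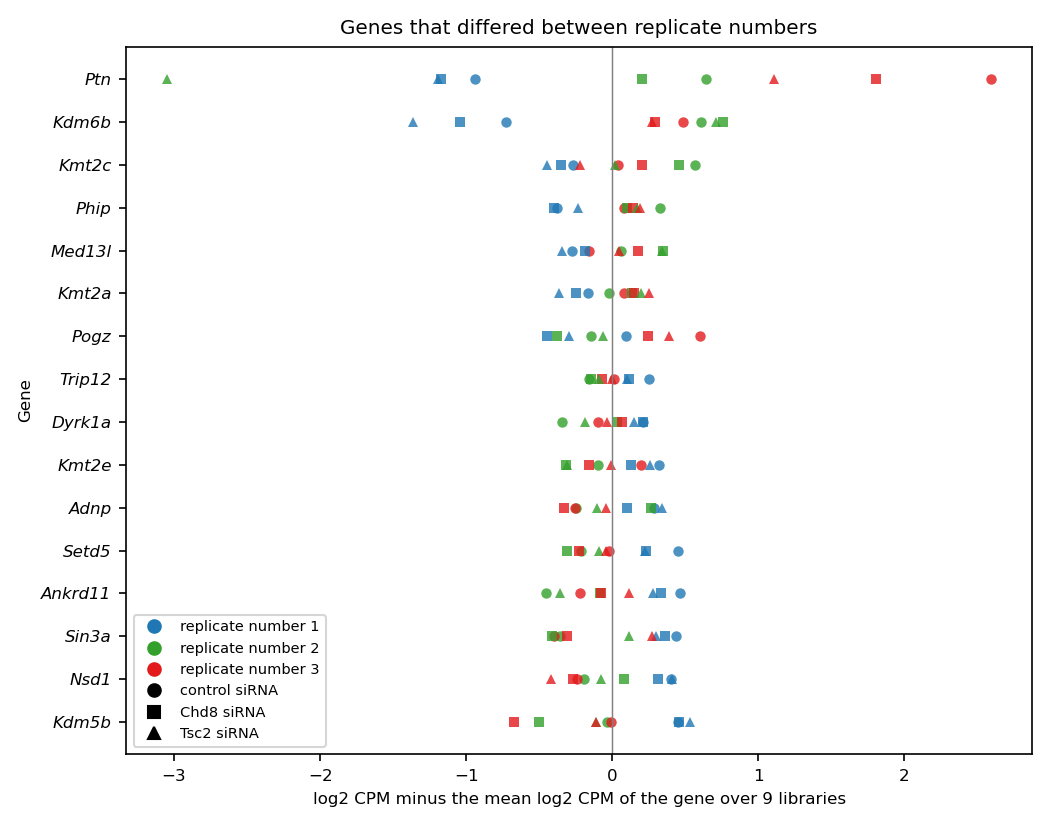
Log2 CPM of the 16 genes that differed between replicate numbers, relative to the mean of each gene over the 9 libraries, with color for the number and symbol for the siRNA. Libraries with number 1 (blue) lie apart for Kdm6b, at 68.2 to 106 CPM against 212 to 297 CPM, and libraries with number 3 (red) are the highest for Ptn.

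Kdm6b had the lowest p in this test. It was at 106, 85.0, and 68.2 CPM in the number 1 libraries of control, Chd8, and Tsc2 siRNA, at 267, 297, and 287 CPM in number 2, and at 245, 215, and 212 CPM in number 3. The log2 difference from number 1 was 1.73 for number 2 and 1.38 for number 3 (adjusted p = 6.52e-08 by edgeR's quasi-likelihood test), and no number 1 library reached the others. The same spread lies inside every siRNA group, where the SE of Kdm6b for Chd8 siRNA was 0.56 without the block and 0.11 with it.

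All 3 number 1 libraries were below the other 6 in 5 members, compared with 9.21% of all genes, and above them in 9 members, compared with 9.64%. The lower members were Kdm6b, Phip, Kmt2c, Med13l, and Kmt2a. Phip was at 213 to 239 CPM in number 1 and at 297 to 352 CPM in the other libraries. Kmt2a, the H3K4 methyltransferase, was at 265 to 304 CPM and 335 to 405 CPM. The higher members were Trip12, Nsd1, Ankrd11, Setd5, Kdm5b, Sin3a, Dyrk1a, Ehmt1, and Zmynd8, the last 2 of which did not pass the FDR. Nsd1 was at 60.0 to 64.3 CPM in number 1, 42.3 to 51.0 CPM in number 2, and 36.1 to 40.8 CPM in number 3. Kdm5b was at 14.7 to 15.6 CPM in number 1 and at 6.75 to 10.7 CPM in the other libraries, the reverse of the other demethylase, Kdm6b. Kmt2e and Adnp also passed with higher values in number 1, but libraries overlapped. Pogz differed in number 3, at 45.3 to 57.8 CPM against 28.0 to 40.8 CPM elsewhere.

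Markers of some other cell types also moved with the number. The astrocyte markers summed to 13.9 to 15.6 CPM in number 1, 27.9 to 31.1 CPM in number 2, and 60.0 to 120 CPM in number 3. Of these, 8 of 10 passed the test of the number, where 25.0% of all genes did. Aqp4, a water channel of astrocytes, had 0 counts in all 3 number 1 libraries, and 46.4 CPM of the 120 CPM in control siRNA library 3. Gja1 and S100b did not follow the order of the sum, with means of 3.09, 1.98, and 6.37 CPM and of 0.320, 0.785, and 0.214 CPM. The other astrocyte markers did. Ptn followed the order of the sum in the group means, at 0.777 ± 0.0788, 1.57 ± 1.23, and 6.47 ± 3.29 CPM (SD, n = 3). The list of fibroblast and vascular markers summed to 21.4 to 25.6, 25.4 to 37.9, and 35.1 to 74.3 CPM, but its genes did not share one order. The means by number were 2.18, 7.08, and 26.6 CPM for Col1a1 and 4.56, 9.83, and 14.4 CPM for Pdgfrb, a receptor of pericytes and fibroblasts. The endothelial markers Pecam1 and Cdh5 ran the other way, with means of 8.97, 6.43, and 5.15 CPM and of 3.93, 2.55, and 2.35 CPM. Cldn5, another endothelial marker of the list, was at 0.0 to 0.0638 CPM and shared neither order. The 15 microglia markers summed to 4420 to 4930, 4490 to 4840, and 3720 to 4560 CPM, with 12 of 14 tested markers passing the test of the number, among them Itgam, at 682 to 760 CPM in number 1 and 264 to 433 CPM elsewhere. Microglia genes did not share one order either, and the receptor gene Trem2 had its lowest mean in number 1, at 75.0, 134, and 110 CPM. Oligodendrocyte lineage markers summed to 113 to 129, 118 to 146, and 80.4 to 92.6 CPM in numbers 1, 2, and 3, and 5 of 6 tested passed the test of the number. Most of this sum was Cnp, an enzyme of myelin, with means of 92.0, 99.9, and 66.9 CPM, whereas the lineage factors Olig1 and Sox10 had their highest means in number 3, at 0.505, 0.640, and 2.17 CPM and at 0.468, 0.0410, and 1.40 CPM. Neuron markers summed to 4.35 to 5.51, 5.26 to 9.63, and 6.35 to 21.4 CPM, and 2 of 7 passed, close to the share of all genes. Map2, a microtubule protein, made up much of the neuron sum, with means of 2.04, 3.06, and 8.13 CPM. Between siRNAs, the collagen gene Col1a1 fell by 1.31 on the log2 scale after Chd8 siRNA with the block (adjusted p = 0.0218), and Aif1, a microglia marker, was higher by 0.53 after Tsc2 siRNA (adjusted p = 0.0452) without reaching 1.5-fold. With single libraries left out, Col1a1 passed the FDR in 2 of 6 such fits and Aif1 in 1 of 6. The part of these cells in the values of the 34 genes was not tested.

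At the other end, Fmr1, Wac, Tcf4, and Cul3 had the smallest F statistics, and the log2 difference of numbers 2 and 3 from number 1 was at most 0.06 in size. Within control siRNA the coefficient of variation was 3.06% for Wac and 4.80% for Tcf4, compared with a median of 16.9% over the 33 members and 27.0% over all genes.

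The partners of the 34 genes were tested in the same fits. In 10 lists of other histone enzymes, complex subunits, and autism risk genes of the synapse, 144 of 155 genes were tested, and 0 passed both thresholds in any comparison, with or without the block. Since at most 0.535% of all genes were called in any of these fits, a count of 0 is close to the background. Dot1l, the H3K79 methyltransferase, passed the FDR with the block but not the fold change. It was at 150, 123, and 135 CPM with control siRNA, at 101, 93.4, and 101 CPM with Chd8 siRNA, and at 118, 87.0, and 87.6 CPM with Tsc2 siRNA, below control in all 6 treated libraries. The log2 difference was −0.46 ± 0.09 for Chd8 siRNA (adjusted p = 0.0236) and −0.49 ± 0.09 for Tsc2 siRNA (adjusted p = 0.0188), and both rest on the same control libraries. Psip1, a chromatin tether of the Kmt2a complex, rose by 0.53 ± 0.10 on the log2 scale after Chd8 siRNA with the block (adjusted p = 0.0245), and Arid4a, a subunit of the SIN3 complex, by 0.44 ± 0.09 (adjusted p = 0.0293). In the fit without the block none of the 3 passed. With the block and 1 library of the compared groups left out, Dot1l passed the FDR in 0 of 6 fits for Chd8 siRNA and 1 of 6 for Tsc2 siRNA, and Psip1 and Arid4a in 0 of 6. The synapse and channel genes of the list were near 0, with a median of 0.120 TPM in the control siRNA libraries. Of the 144 partners, 56 (38.9%) differed between replicate numbers, compared with 25.0% of all genes.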

How the data were processed

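RNA-seq counts were analysed for 9 libraries of primary microglia. Per the labels, the authors quantified reads with Salmon 0.14.1 on mm10, and per the methods they imported them with tximport; the deposited values are estimated counts per transcript, not normalized or pooled. The library kit was a stranded SMARTer kit per the labels and an Illumina total RNA preparation per the methods. Transcripts were summed to genes with GENCODE mouse release 21 (GRCm38), which matched 139852 of 140948 transcripts. The unmatched ones held 0.27% of the counts. Sums were rounded, and 16273 genes passed edgeR's filterByExpr. Genes were tested with edgeR 4.0.16 (R 4.3.3), by the quasi-likelihood test with TMM factors, the siRNA as the only factor, and all 9 libraries. P-values were adjusted by Benjamini-Hochberg over all genes and genes were called at FDR 0.05 and 1.5-fold. TPM were computed here from the counts and annotated lengths. For single genes, log2(CPM + 0.5) was compared by an exact permutation test (two-sided).

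The replicate numbers come from the sample titles. Deviations from the group means correlated between libraries of one number (r 0.244 to 0.521 in all 9 pairs) and not between numbers (−0.381 to 0.036), so the number was used as a block in the other fit. Per the methods a biological replicate is a culture from 1 brain; whether libraries of one number share a culture is not stated, so p-values measure the spread between these libraries. Alternatives were other normalizations, no filter, DESeq2 1.42.0, limma-voom (limma 3.58.1), fits of 6 libraries, protein coding transcripts, no fold threshold, and each library left out. Counting floors of 3 counts cover counting error only. Values were given for every library where a member was among the 5 highest or 5 lowest in TPM or was called; other genes named were chosen after their values were seen. The members and lists were chosen with earlier results of these data known. The fits were tested on simulated data. Python 3.11.15, pandas 2.3.3, scipy 1.17.1, and matplotlib 3.10.9 were used.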

Additional observations from a re-analysis of the deposited data

How the results depend on the processing

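The count of 0 members called held in all 3 comparisons under every alternative, including the replicate block, DESeq2's Wald test, limma-voom, no count filter, and each library left out, so the block changed no call of a member. It changed the counts over all genes from 0, 0, and 0 to 87, 63, and 36 for Chd8 siRNA, Tsc2 siRNA, and the knockdowns against each other, and the call of Chd8 itself, and DESeq2 called 9, 6, and 5 genes. At an FDR of 0.05 without the fold threshold, members passed only with the block and without Tsc2 siRNA replicate 1, Foxp1 after Tsc2 siRNA (log2 difference 0.32, adjusted p = 0.0376) and Sin3a between the knockdowns (−0.58, adjusted p = 0.0485). With a library left out, the log2 difference of Kdm6b after Tsc2 siRNA ran from −0.55 to 0.28, and turned above 0 without control siRNA replicate 2 (0.11), control siRNA replicate 3 (0.02), or Tsc2 siRNA replicate 1 (0.28), each time without the block. The sign of the log2 difference changed in some alternative for 19 of 33 members after Chd8 siRNA, 22 after Tsc2 siRNA, and 21 between the knockdowns, and none of these differences was called. The number of members that differed between replicate numbers was 12 to 17 with a library left out, 14 with protein coding transcripts only, and 16 with DESeq2's size factors. The median level of 8.17 TPM in control siRNA became 38.3 TPM with protein coding transcripts only, which removes the short RNAs from the total, and 12.2 TPM with 200 bases taken off each length. Depth limits Bcl11a and Asxl3, and Ptn in part, whose counts fell to 1, 1, and 4 in single libraries.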
